A study of Homo sapiens with 12 samples.

Results

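The genes described here are 50 ribosome biogenesis factors, the proteins that transcribe, modify, cleave and assemble ribosomal RNA into subunits. They were taken from a list of names, matched through their Ensembl identifiers, and all 50 were found among the 57773 genes counted and among the 22984 genes with enough counts to test. The RNA came from HuH-7, a human hepatoma cell line in long use. One line stably expressed the SUMOylation mutant of HuR, K120/182R, in which arginines replace a pair of lysines, and the other stably overexpressed wild-type (WT) HuR. From each line, RNA bound to V5-tagged HuR was recovered by RNA immunoprecipitation (RIP) and compared with the RNA of the input. This gives 4 groups of 3 libraries, namely mutant RIP, mutant input, WT RIP and WT input, and the study set out to compare the RNAs bound by SUMOylated and non-SUMOylated HuR. Both lines carried a HuR transgene, the labels do not say whether each line is 1 clone, and no line without the tag and no mock precipitation is used here. A level above input was therefore not compared with the RNA that sticks to beads. Per the labels, a RIP library started from 16 to 77 ng of RNA and an input library from 250 ng, and effects of this amount cannot be told apart from precipitation. Whether replicates are separate cultures is not stated in the labels, and each p-value then reflects only library-to-library spread, possibly technical.

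Ribosomes are built in the nucleolus, where RNA polymerase I transcribes a long precursor of ribosomal RNA. Small nucleolar RNAs (snoRNAs) guide its methylation and pseudouridylation in box C/D and box H/ACA particles, the small subunit processome shapes the precursor of the 40S subunit, and a separate set of factors assembles the 60S subunit. HuR, encoded by ELAVL1, is an RNA-binding protein known for binding U-rich and AU-rich elements, chiefly in 3′ untranslated regions (3′UTRs) and introns. SUMOylation attaches a small ubiquitin-like protein to lysines.

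Gene-level totals ran from 31774994 to 49612379 counts in the RIP libraries and from 52052110 to 73149117 in the inputs. The 50 genes had between 14 and 57393 counts in a library, and 48 of them had at least 100 counts in every library. All 10 hepatoma markers were tested, with a summed level of 8794 to 9923 CPM (a gene's counts per unit of library size, with sizes scaled by edgeR's TMM method) in mutant input and 11196 to 13184 CPM in WT input. Summed immune markers (4 of 6 tested) and stromal markers (2 of 7 listed were tested) reached at most 5.87 and 2.32 CPM in any library. ELAVL1 itself, whose reads come from the endogenous gene and from any transgene that carries its sequence, averaged 48.3 ± 4.18 CPM in mutant input and 58.2 ± 5.32 CPM in WT input (SD, n = 3 each), a log2 difference of -0.27 ± 0.12 (SE; adjusted p = 0.14). Fewer cells of a type and less RNA per cell cannot be told apart in such bulk libraries.

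Enrichment is the log2 ratio of RIP over input of the same line, given with its standard error, and a gene was called when edgeR's quasi-likelihood test gave it an adjusted p under 0.05. In the mutant line 17 of the 50 genes were higher in RIP than in input and 18 were lower. Over all genes tested 29.0% were called higher and 28.0% lower, and over protein-coding genes 26.6% and 36.1%. In the WT line 13 were higher and 19 lower, against 25.6% and 25.4% of all genes and 22.0% and 34.0% of protein-coding genes. The median enrichment of the 50 was -0.05 in the mutant line and -0.17 in the WT line, against -0.11 and -0.13 for protein-coding genes. So the family as a whole lay near the coding background, and its members spread widely, with enrichments between -2.83 and 1.76 in the mutant line and between -2.88 and 1.02 in the WT line. These directions hold under TMM, under DESeq2 size factors and under TMM from protein-coding genes, but with total library size, which moved the median of all genes to 1.38 in the mutant line and 1.12 in the WT line, 16 of the 35 called genes changed sign in the mutant line and 14 of 32 in the WT line. TMM from protein-coding genes gave 17 higher and 15 lower in each line. Over all 22984 genes it gave 7642 and 5560 in the mutant line and 7045 and 4773 in the WT line. Every direction below is relative to the TMM scaling.

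**Figure D1:**
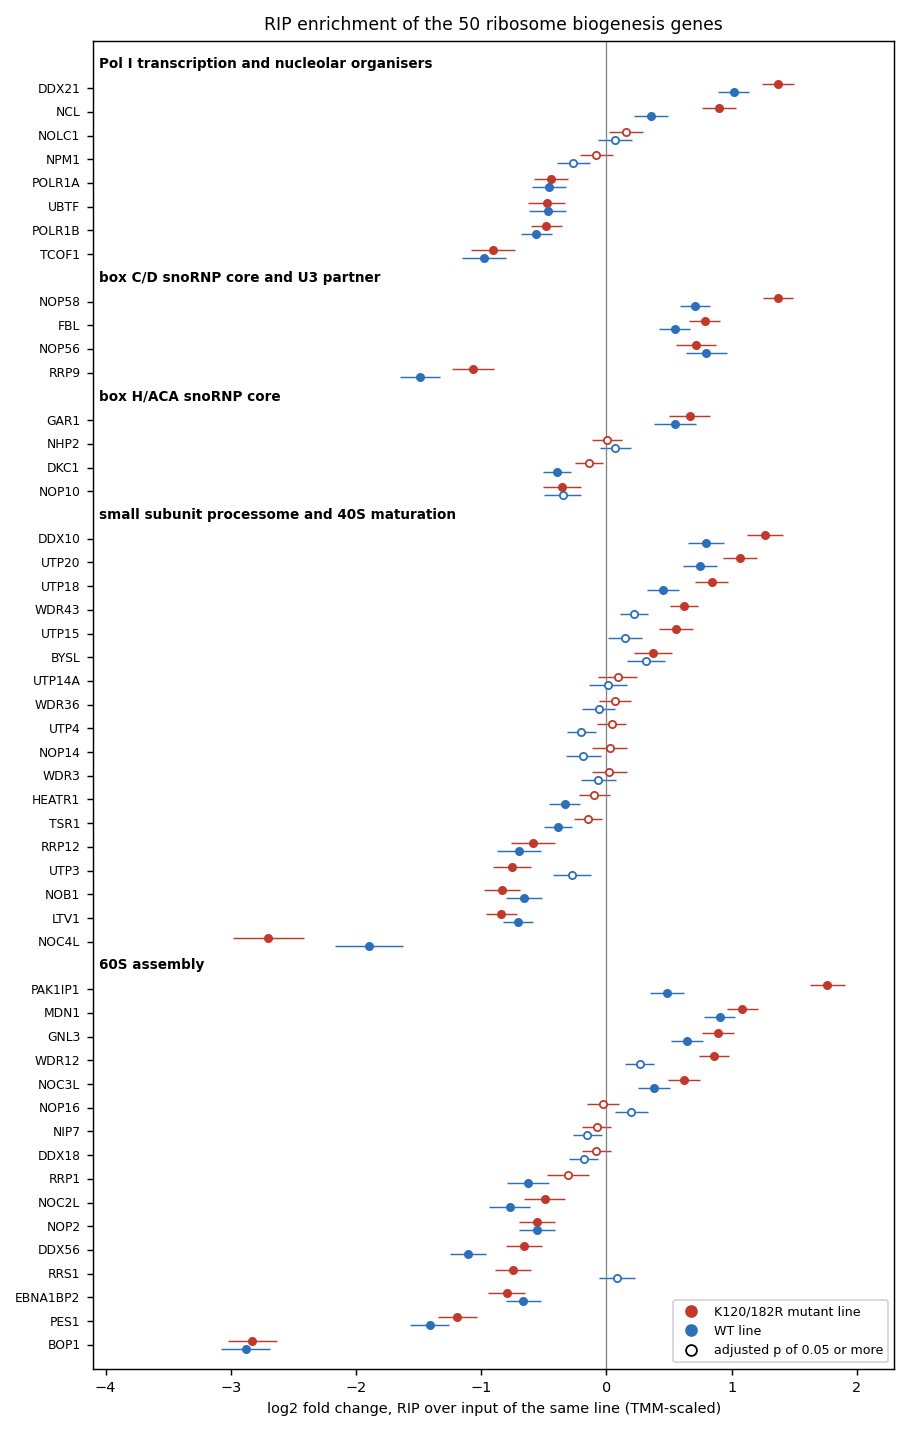
Log2 fold change of RIP over input (x axis, TMM-scaled) for the 50 genes, grouped by role and ordered within a role by the mutant line. Red points are the K120/182R mutant line, blue points the WT line, bars are standard errors from the edgeR fit over 3 libraries a group, and open points had an adjusted p of 0.05 or more. PAK1IP1 stands highest in the mutant line (1.76), BOP1 lowest in both lines (-2.83 in mutant, -2.88 in WT).

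The genes held to much the same order in both lines. Across the 50 genes the enrichments had a Pearson r of 0.94 and a Spearman rho of 0.94 (a description over genes, which are not independent replicates; the lines share no library). In both lines 13 genes were higher, 15 were lower and 11 were not called, and no gene was called in opposite directions. A further 4 were higher in the mutant line and not called in the WT line (UTP15, WDR43, BYSL and WDR12), 3 were lower in the mutant line and not called in the WT line (NOP10, UTP3 and RRS1), and 4 were lower in the WT line and not called in the mutant line (DKC1, HEATR1, TSR1 and RRP1). None of these 11 genes was called in edgeR's test of the difference between the lines, while the DESeq2 test called WDR12 higher and RRS1 lower.

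Since HuR is known for binding U-rich and AU-rich stretches, the stretch of the 3′UTR with the most matches to a pair of such motifs is shown for 4 genes enriched in both lines and 2 depleted in both. The motifs searched on the transcript strand were ATTTA and TTTNTTT, and capitals mark their matches, which may overlap. Sequences are those of the genome at the 3′UTR of the GENCODE 44 canonical transcript on hg19 (GRCh37), written 5′ to 3′.
PAK1IP1 (chr6:10709739-10709768, + strand): gtaccttaaTTTTTTTTTTTTccctgagta
DDX21 (chr10:70744592-70744621, + strand): tgtATTTAtaaatgtataatgtATTTAgct
NOP58 (chr2:203168355-203168384, + strand): tatacaaataaaatTTTCTTTgtattttaa
DDX10 (chr11:108811541-108811570, + strand): atgatttcgacgtATTTAatattttcaaag
RRP9 (chr3:51967489-51967518, - strand): tcttatcctccttATTTAagtccttcccag
NOP2 (chr12:6666046-6666075, - strand): gcatacccatgaaATTTAatacacatttta
The first 4 belong to enriched genes and the last 2 to depleted ones, and a match is only a description of letters, not a site. PAK1IP1 holds an unbroken run of T soon after its stop codon, and DDX21 holds a pair of ATTTA motifs within 30 bases. RRP9 and NOP2 hold 1 ATTTA each although both were depleted, in 3′UTRs of 77 and 122 bases, against 225 to 2256 bases in the 4 enriched genes. The genes shown are examples and do not stand for the others, also in length. The median 3′UTR was 330 bases in the 13 genes higher in both lines and 407 in the 14 genes with a transcript lower in both. POLR1A, lower in both lines, holds 2 ATTTA and 28 TTTNTTT in its 3′UTR, whereas NOP56, FBL and GAR1, higher in both, hold neither motif. Over the 49 genes with a transcript in the annotation, ATTTA was found in the 3′UTR of 31 (63.3%) and TTTNTTT in 29 (59.2%), against 68.1% and 66.7% of 18776 coding transcripts. ATTTA was present in 8 of the 13 genes higher in both lines and 9 of the 14 genes with a transcript that were lower in both. TTTNTTT was present in 9 of 13 and 6 of 14.

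Among the 8 factors of RNA polymerase I transcription and nucleolar organisation, 2 were higher and 4 lower in each line, and under total library size the 4 lower ones (TCOF1, POLR1B, UBTF and POLR1A) changed sign in both. DDX21, a nucleolar RNA helicase, was the most enriched of them. DDX21 (ENSG00000165732, chr10:70715891-70744824, + strand) had 102, 102 and 107 CPM in mutant RIP, against 34.6, 43.0 and 42.8 CPM in mutant input. The WT libraries held 54.9, 58.1 and 71.9 CPM in RIP, against 31.8, 28.1 and 31.5 CPM in input. Every RIP library of a line lay above every input library, and the enrichment was 1.37 ± 0.13 (adjusted p = 1.34e-09) in the mutant line and 1.02 ± 0.13 (adjusted p = 2.65e-07) in the WT line. Nucleolin, NCL, an abundant nucleolar RNA-binding protein, had an enrichment of 0.90 ± 0.14 (adjusted p = 3.25e-06) in the mutant line and 0.36 ± 0.13 (adjusted p = 0.0284) in the WT line. The WT libraries of NCL overlapped, at 102, 122 and 137 CPM in RIP and 88.5, 85.0 and 108 CPM in input, and the WT call was lost without WT RIP library 2 or 3 or WT input library 1 or 2 (adjusted p 0.0538 to 0.171). Exons of NCL also hold the snoRNAs SNORA75 and SNORD20, with 8008 and 3757 counts over all libraries against 72231 for NCL, so part of its signal is uncertain.

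TCOF1, the treacle protein of ribosomal DNA transcription, was the most depleted factor of this group. TCOF1 (ENSG00000070814, chr5:149737192-149779871, + strand) had 14.2, 17.4 and 14.4 CPM in mutant RIP, against 36.2, 24.0 and 25.9 CPM in mutant input. Its WT values were 8.64, 9.74 and 10.5 CPM in RIP, against 15.5, 16.1 and 25.1 CPM in input. No RIP library reached the lowest input library of its line, and the enrichment was -0.90 ± 0.17 (adjusted p = 0.00013) in the mutant line and -0.98 ± 0.18 (adjusted p = 7.77e-05) in the WT line. With the trend of each library with GC content removed, TCOF1 was no longer called and its sign turned in the mutant line, at 0.0408 (adjusted p = 0.798) in the mutant line and -0.21 (adjusted p = 0.163) in the WT line. The polymerase subunits POLR1A and POLR1B and the promoter factor UBTF lay close together, with enrichments of -0.44, -0.48 and -0.48 in the mutant line and -0.46, -0.56 and -0.47 in the WT line (adjusted p 0.000492 to 0.0102). The WT call of POLR1A was lost without WT input library 3 (adjusted p = 0.0541), that of UBTF without WT RIP library 1 (0.0552) or WT input library 3 (0.0850), and the mutant call of UBTF without mutant input library 1 (0.0821). Removing the GC trend ended the calls of POLR1A, at -0.11 in the mutant line and -0.22 in the WT line, and of UBTF, at 0.12 and -0.0161 (adjusted p 0.0871 to 0.916), and with TMM from protein-coding genes UBTF had an adjusted p of 0.0536 in the mutant line and 0.0681 in the WT line. The chaperones NOLC1 and NPM1 were not called in either line. NPM1, with an enrichment of -0.08 ± 0.13 in the mutant line and -0.26 ± 0.13 in the WT line, has 49 annotated pseudogene copies that held counts equal to 2.64% of its own, so reads may be shared.

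In the box C/D snoRNP, the particle that methylates ribosomal RNA, the 3 core proteins among the 50 genes were higher in RIP in both lines. The U3-specific partner RRP9 was lower. Of these 4 genes only RRP9 in the mutant line changed sign under total library size. NOP58, a core scaffold protein, had the largest mutant enrichment of the group. NOP58 (ENSG00000055044, chr2:203130459-203168384, + strand) had 85.5, 88.7 and 98.7 CPM in mutant RIP, against 31.0, 38.4 and 36.1 CPM in mutant input. In the WT line it had 55.5, 58.3 and 63.0 CPM in RIP, against 36.0, 38.4 and 34.0 CPM in input. RIP and input libraries did not overlap in either line, with enrichments of 1.37 ± 0.12 (adjusted p = 4.39e-10) in the mutant line and 0.71 ± 0.12 (adjusted p = 1.86e-05) in the WT line. NOP56, its partner scaffold, was the most counted of the 50 genes. NOP56 (ENSG00000101361, chr20:2633239-2639039, + strand) had 810.2, 858 and 783 CPM in mutant RIP, against 376, 559 and 558 CPM in mutant input, and 618, 737 and 747 CPM in WT RIP, against 389, 443 and 376 CPM in WT input. Its enrichment was 0.72 ± 0.16 (adjusted p = 0.000451) in the mutant line and 0.80 ± 0.16 (adjusted p = 0.000173) in the WT line. Exons of NOP56 overlap SNORD86 and SNORA51, counted 34133 and 16038 times against 395038 for NOP56, so its value is uncertain to that extent.

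The methyltransferase of the same particle, FBL, had an enrichment of 0.79 ± 0.12 (adjusted p = 6.31e-06) in the mutant line and 0.54 ± 0.12 (adjusted p = 0.000627) in the WT line. RRP9 (ENSG00000114767, chr3:51967445-51975920, - strand), which binds the U3 snoRNA of the processome, went the other way. It had 4.69, 4.37 and 3.33 CPM in mutant RIP, against 9.69, 8.86 and 7.53 CPM in mutant input, and 3.28, 4.27 and 4.32 CPM in WT RIP, against 11.3, 10.1 and 11.9 CPM in WT input. The libraries did not overlap, and the enrichment was -1.07 ± 0.16 (adjusted p = 4.61e-06) in the mutant line and -1.49 ± 0.16 (adjusted p = 3.61e-08) in the WT line. With the GC trend removed the mutant value was -0.0187 (adjusted p = 0.921), and with total library size the WT value was -0.45 (adjusted p = 0.0666), neither of which was called.

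The box H/ACA particle, which makes pseudouridine, showed no common direction. GAR1 was higher in both lines, NOP10 was lower in the mutant line, DKC1, the pseudouridine synthase, was lower in the WT line, and NHP2 was not called, and under total library size NOP10 (mutant) and DKC1 (WT) changed sign. GAR1 (ENSG00000109534, chr4:110736666-110745896, + strand) had 7.09, 7.49 and 7.41 CPM in mutant RIP, against 4.59, 4.81 and 4.47 CPM in mutant input. The WT libraries had 6.19, 5.43 and 5.22 CPM in RIP, against 4.76, 3.74 and 2.98 CPM in input. Its enrichment was 0.66 ± 0.17 (adjusted p = 0.00134) in the mutant line and 0.55 ± 0.17 (adjusted p = 0.00752) in the WT line, and the WT call was lost without WT input library 3 (0.39, adjusted p = 0.0738). DKC1 (ENSG00000130826, chrX:153991017-154005964, + strand) had 30.2, 28.9 and 29.8 CPM in mutant RIP, against 30.9, 34.9 and 31.9 CPM in mutant input, which just did not overlap. The WT libraries held 27.4, 27.0 and 25.8 CPM in RIP, against 36.4, 31.9 and 37.3 CPM in input, a clearer gap. The enrichments of DKC1 were -0.14 ± 0.11 (adjusted p = 0.304) in the mutant line and -0.40 ± 0.11 (adjusted p = 0.00429) in the WT line, and the WT call was lost with TMM from protein-coding genes (-0.25, adjusted p = 0.0529). NOP10 libraries overlapped in the mutant line, where its enrichment was -0.36 ± 0.15 (adjusted p = 0.0457), with -0.35 ± 0.15 in the WT line. The call of NOP10 was lost with 5 other settings (DESeq2 size factors, the DESeq2 test, TMM from protein-coding genes, the stricter filter and the GC trend removed; adjusted p 0.0644 to 0.234) and without mutant RIP library 1 or 3 or mutant input library 1 or 2 (adjusted p 0.0511 to 0.267).

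Of the 18 factors of the small subunit processome and of later 40S maturation, 6 were higher and 5 lower in the mutant line and 3 were higher and 6 lower in the WT line. Under total library size 4 of these lower ones changed sign in the mutant line (RRP12, UTP3, LTV1 and NOB1) and 5 in the WT line (RRP12, HEATR1, LTV1, NOB1 and TSR1). The helicase DDX10 and the processome proteins UTP20 and UTP18 were higher in both lines. DDX10 (ENSG00000178105, chr11:108535785-108811726, + strand) had 37.5, 31.3 and 30.9 CPM in mutant RIP, against 12.8, 16.5 and 12.1 CPM in mutant input. Its WT values were 22.8, 25.7 and 32.0 CPM in RIP, against 15.1, 15.4 and 15.9 CPM in input, again with no overlap. The enrichment of DDX10 was 1.27 ± 0.14 (adjusted p = 3.14e-08) in the mutant line and 0.80 ± 0.14 (adjusted p = 3.65e-05) in the WT line. UTP20 followed with 1.07 ± 0.14 in the mutant line and 0.75 ± 0.14 in the WT line, and UTP18 with 0.84 ± 0.13 and 0.45 ± 0.13. UTP15 and WDR43, members of the early-binding t-UTP complex, were called higher in the mutant line at 0.56 ± 0.14 and 0.62 ± 0.11, with 0.15 ± 0.14 and 0.22 ± 0.11 in the WT line, and UTP15 lost its call with the GC trend removed (0.15, adjusted p = 0.282). BYSL, a factor of 40S maturation, reached 0.37 ± 0.15 in the mutant line with overlapping libraries, and lost its call without any of 5 libraries (mutant RIP 1 or 2, mutant input 2 or 3, or WT input 2; adjusted p 0.0502 to 0.169) and with no filter (0.0503).

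NOC4L, which works with NOP14 in the processome, was by far the most depleted small subunit factor. NOC4L (ENSG00000184967, chr12:132629002-132637018, + strand) had 0.649, 0.751 and 0.321 CPM in mutant RIP, against 5.19, 3.43 and 2.91 CPM in mutant input. In the WT line it had 0.711, 0.832 and 0.702 CPM in RIP, against 2.66, 2.46 and 3.26 CPM in input. The groups were far apart and the enrichment was -2.70 ± 0.28 (adjusted p = 9.9e-09) in the mutant line and -1.90 ± 0.27 (adjusted p = 2.13e-06) in the WT line, but with 14 to 174 counts in a library it was the least counted of the 50 genes. NOB1, the nuclease that matures the end of the small subunit rRNA, was lower in both lines. NOB1 (ENSG00000141101, chr16:69775774-69788829, - strand) had 23.1, 19.7 and 17.9 CPM in mutant RIP, against 44.7, 33.2 and 30.4 CPM in mutant input, and 18.0, 15.2 and 15.1 CPM in WT RIP, against 22.1, 25.6 and 28.4 CPM in WT input. Its enrichment was -0.83 ± 0.14 (adjusted p = 2.27e-05) in the mutant line and -0.66 ± 0.14 (adjusted p = 0.000492) in the WT line, and its WT call was lost with the GC trend removed (-0.25, adjusted p = 0.0778). The export factor RRP12 had -0.59 in the mutant line and -0.70 in the WT line, and LTV1, a factor of late 40S maturation, -0.84 and -0.70. With the GC trend removed RRP12 was no longer called and its mutant sign turned, at 0.27 in the mutant line (adjusted p = 0.104) and -0.00844 in the WT line (adjusted p = 0.965). UTP3 was called lower in the mutant line at -0.75 ± 0.15, with -0.27 ± 0.15 in the WT line. HEATR1 and TSR1 were called lower in the WT line at -0.33 ± 0.12 and -0.39 ± 0.11, with -0.10 ± 0.13 and -0.15 ± 0.11 in the mutant line. The WT call of HEATR1 was lost without any of 5 libraries (WT RIP 1 or 2, WT input 1 or 2, or mutant input 3; adjusted p 0.0517 to 0.200) and that of TSR1 without WT input library 1 (0.0634). With TMM from protein-coding genes both calls were lost (HEATR1 0.199, TSR1 0.0657), and that of HEATR1 also with no filter (0.0810) or the stricter one (0.0593). Values of genes whose exon bases are shared with another counted gene are uncertain, here TSR1 (23.9% with SRR), HEATR1 (23.1% with LGALS8), NOP14 (20.7% with NOP14-AS1), NOB1 (20.4% with NQO1-DT) and WDR3 (17.1% with SPAG17), and LTV1 (7.12%) and RRP12 (6.09%) with an unnamed gene. NOP14, UTP4, UTP14A, WDR3 and WDR36 were not called in either line, with enrichments between -0.20 and 0.09. With the GC trend removed WDR3 and WDR36 were called lower in the mutant line, at -0.35 and -0.38 (adjusted p = 0.0318 and 0.00485).

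The 16 factors of 60S assembly held both extremes of the mutant line, with 5 higher and 7 lower in the mutant line and 4 higher and 7 lower in the WT line. Under total library size 6 of the 7 lower ones changed sign in the mutant line (PES1, NOP2, EBNA1BP2, DDX56, RRS1 and NOC2L) and 4 in the WT line (NOP2, EBNA1BP2, RRP1 and NOC2L). The PeBoW complex, formed by PES1, BOP1 and WDR12, was split. BOP1 (ENSG00000170727, chr8:145486055-145515082, - strand) had 1.36, 1.70 and 1.19 CPM in mutant RIP, against 12.2, 9.49 and 8.75 CPM in mutant input. The WT libraries held 0.893, 1.40 and 1.02 CPM in RIP, against 8.37, 8.30 and 7.87 CPM in input. The highest RIP library was far under the lowest input library in each line, and the enrichment, -2.83 ± 0.19 (adjusted p = 6.88e-12) in the mutant line and -2.88 ± 0.20 (adjusted p = 1.52e-11) in the WT line, was the lowest of the 50 genes. It corresponds to a RIP level of 0.141 and 0.136 times the input level. BOP1 has no canonical transcript in the annotation used, so it is absent from the motif, GC content and per-length results.

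PES1 (ENSG00000100029, chr22:30972612-31003070, - strand) had 10.5, 9.74 and 7.39 CPM in mutant RIP, against 24.6, 19.0 and 19.9 CPM in mutant input, and 6.77, 8.51 and 8.13 CPM in WT RIP, against 21.2, 17.0 and 23.9 CPM in WT input. Its enrichment was -1.19 ± 0.16 (adjusted p = 3.67e-07) in the mutant line and -1.41 ± 0.16 (adjusted p = 4.1e-08) in the WT line, and with total library size the WT call was lost (-0.38, adjusted p = 0.0969). WDR12 (ENSG00000138442, chr2:203738984-203879521, - strand) had 27.7, 31.7 and 31.8 CPM in mutant RIP, against 15.4, 17.8 and 17.0 CPM in mutant input. In the WT line WDR12 had 27.7, 26.4 and 27.4 CPM in RIP, against 24.7, 20.3 and 22.7 CPM in input, still without overlap. Its enrichment was 0.86 ± 0.12 (adjusted p = 9.08e-07) in the mutant line and 0.27 ± 0.12 (adjusted p = 0.0617) in the WT line. WDR12 was thus called higher in RIP than in input in the mutant line and not called in the WT line. Between the lines, mutant over WT, its RIP level was not called (0.16 ± 0.12, adjusted p = 0.368). Its input was called lower in the mutant line (-0.43 ± 0.12, adjusted p = 0.0132).

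MDN1, the large ATPase that remodels 60S precursors, was enriched in both lines. MDN1 (ENSG00000112159, chr6:90352217-90529513, - strand) had 71.6, 70.1 and 62.0 CPM in mutant RIP, against 30.4, 34.3 and 31.3 CPM in mutant input, and 46.2, 54.5 and 57.3 CPM in WT RIP, against 24.3, 27.8 and 32.4 CPM in WT input. Its enrichment was 1.09 ± 0.13 (adjusted p = 5.58e-08) in the mutant line and 0.90 ± 0.13 (adjusted p = 1.42e-06) in the WT line. The nucleolar GTPase GNL3 and NOC3L, a partner of NOC2L, were also higher in both lines, at 0.89 ± 0.13 and 0.62 ± 0.13 in the mutant line and 0.65 ± 0.13 and 0.38 ± 0.13 in the WT line. NOC3L lost its WT call without WT RIP library 3 (0.24, adjusted p = 0.148), and its calls in both lines with the GC trend removed (0.19 in the mutant line and 0.15 in the WT line). NOC2L was lower in both at -0.49 ± 0.16 in the mutant line and -0.77 ± 0.16 in the WT line, and lost its mutant call without mutant RIP library 3 (adjusted p = 0.0989) or mutant input library 1 (0.141), and with TMM from protein-coding genes (0.0665). With the GC trend removed NOC2L turned in both lines, to 0.50 in the mutant line (adjusted p = 0.000392, called higher) and 0.0265 in the WT line (0.860). NOP2, a methyltransferase of the large subunit rRNA, the helicase DDX56 and EBNA1BP2 were lower in both, at -0.55, -0.66 and -0.80 in the mutant line and -0.56, -1.11 and -0.66 in the WT line. With the GC trend removed NOP2 was called in neither line (-0.00746 in the mutant line, -0.13 in the WT line) and DDX56 not in the mutant line (-0.0222), and with total library size DDX56 was not called in the WT line (-0.0687). RRP1 was called lower in the WT line at -0.63 ± 0.17, with -0.30 ± 0.17 in the mutant line, and RRS1, a factor of 5S particle loading, was called lower in the mutant line at -0.74 ± 0.15, with 0.08 ± 0.14 in the WT line. With the GC trend removed RRP1 turned in both lines, to 0.72 in the mutant line (adjusted p = 0.000168, called higher) and 0.19 in the WT line (0.283), and RRS1 lost its mutant call (-0.0461, adjusted p = 0.787). NOP16, DDX18 and NIP7 were not called in either line, but NOP16 was called higher in the mutant line with the GC trend removed (0.42, adjusted p = 0.000684). Exon bases are shared with another counted gene in NIP7 (18.4% with COG8), EBNA1BP2 (13.7% with CFAP57) and NOC2L (6.73% with SAMD11), whose values are uncertain.

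The difference between the lines was tested as the mutant enrichment minus the WT enrichment. In that test 1 of the 50 genes, PAK1IP1, was called higher and none lower, against 15 of 22984 genes (0.0653%) and 0.0856% of protein-coding genes called higher and 0 lower in edgeR. The 50 genes were chosen with earlier results of these data known. Shares over all genes, here and in the comparisons below, therefore give scale only, and no excess is claimed. At an unadjusted p under 0.05 there were 9 genes higher and 3 lower of the 50, against 7.60% and 5.47% of all genes. The difference was positive for 39 of the 50, with a median of 0.16, against a median of 0.00 over all genes. With the DESeq2 test NOP58 and WDR12 were called higher besides PAK1IP1, and RRS1 was called lower, where that test called 1.65% of all genes higher and 0.239% lower. In edgeR their differences were 0.66 ± 0.17 (adjusted p = 0.103), 0.59 ± 0.17 (adjusted p = 0.131) and -0.83 ± 0.20 (adjusted p = 0.0997).

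PAK1IP1, a WD-repeat protein of early 60S assembly, is the gene in which the lines differed. PAK1IP1 (ENSG00000111845, chr6:10695205-10710015, + strand) had 40.1, 43.8 and 48.7 CPM in mutant RIP, against 11.2, 13.9 and 13.9 CPM in mutant input. Its WT values were 18.0, 22.9 and 20.7 CPM in RIP, against 16.9, 14.1 and 12.9 CPM in input. The mutant RIP libraries stood far above the WT RIP libraries, while the inputs of the lines overlapped. The enrichment was 1.76 ± 0.14 (adjusted p = 6.25e-11) in the mutant line and 0.49 ± 0.13 (adjusted p = 0.00383) in the WT line, a difference of 1.28 ± 0.19 (adjusted p = 0.0115). RIP alone differed by 1.11 ± 0.13 (adjusted p = 2.5e-06) between mutant and WT, and input by -0.17 ± 0.14 (adjusted p = 0.428). The call of the difference was lost without WT RIP library 1 (1.19, adjusted p = 0.0657), mutant RIP library 3 (1.21, 0.0737) or WT input library 1 (1.12, 0.0601), and over the 21 alternatives run the adjusted p ranged between 3.76e-06 and 0.0737. The exons of PAK1IP1 overlap no other counted gene and no pseudogene copy of it was found by name.

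**Figure D2:**
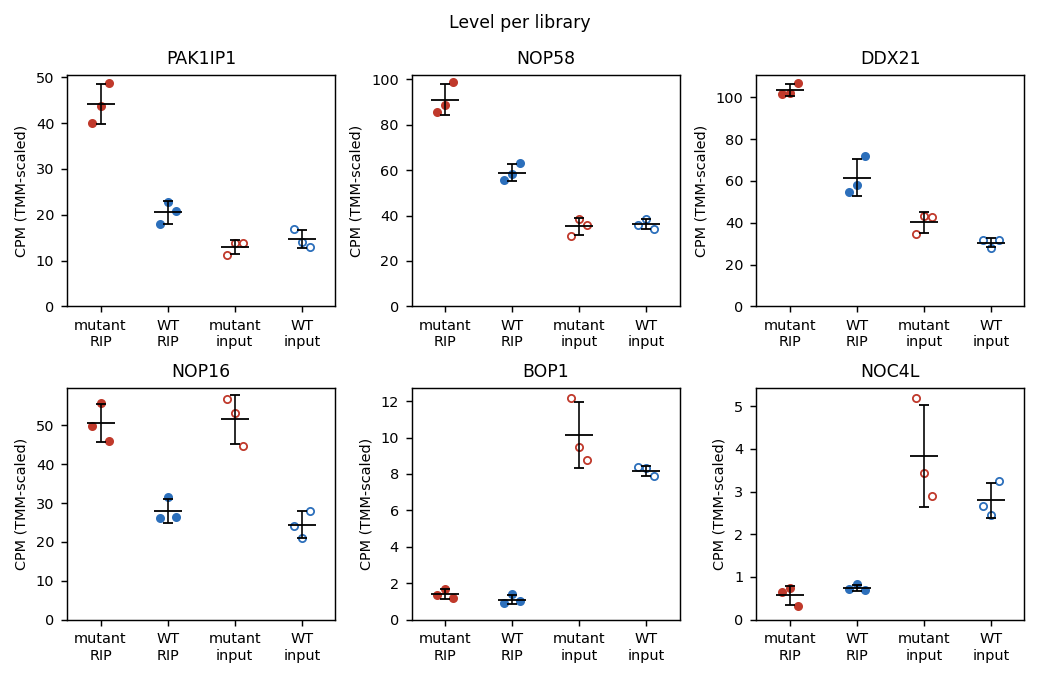
Levels of 6 genes in each of the 12 libraries (y axis, TMM-scaled CPM), with mutant RIP, WT RIP, mutant input and WT input from left to right. Points are libraries, the long bar is the mean and the whiskers are the SD (n = 3). PAK1IP1 and NOP58 are high in mutant RIP with like inputs, DDX21 and NOP16 are also higher in mutant input, and BOP1 and NOC4L are low in RIP in both lines.

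When the precipitates were compared directly, 15 of the 50 genes were higher in mutant RIP than in WT RIP and 2 were lower, against 9.87% and 9.76% of all genes and 11.6% and 13.4% of protein-coding genes. Their median difference was 0.31, against 0.01 over all genes. The lower genes were RRS1 and EBNA1BP2. With DESeq2 size factors the count was 16 higher and 0 lower, with total library size 5 (DDX21, NHP2, PAK1IP1, NOP2 and NOP16) and 2, and without WT RIP library 1 it was 8 and 0. Over all 22984 genes DESeq2 size factors gave 2550 higher and 1954 lower, and total library size gave 776 and 2529. Leaving out WT RIP library 1 gave 1299 and 1497 of 23807. The 8 genes called in all 12 fits that leave out a library were DDX21, NOP58, NHP2, UTP20, WDR43, PAK1IP1, NOP2 and NOP16. Of the 15 genes, 5 were also higher in mutant input than in WT input (TCOF1, DDX21, NHP2, NOP2 and NOP16), and 10 were not called there (NOP58, UTP4, UTP15, UTP18, UTP20, WDR43, RRP12, PAK1IP1, GNL3 and MDN1). The libraries of RRP12 overlapped although it was called. Among the 9 calls that did not hold, all were lost without WT RIP library 1 (adjusted p 0.0520 to 0.271). Those of UTP15, UTP18, RRS1, EBNA1BP2 and GNL3 were also lost without mutant RIP library 3, those of TCOF1, RRS1, RRP12, GNL3 and MDN1 without mutant RIP library 2, those of UTP4, UTP15, RRP12, EBNA1BP2 and MDN1 without mutant RIP library 1, those of UTP4, EBNA1BP2 and MDN1 without WT RIP library 2 and those of UTP4, RRP12 and GNL3 without WT RIP library 3. UTP4, RRP12 and MDN1 also lost theirs without 4 of the input libraries (adjusted p 0.0544 to 0.0652). Input libraries enter this comparison through the filter, the scaling and the shared spread. Without WT input library 1 the log2 values fell from 0.36 to 0.32 for UTP4, 0.50 to 0.47 for RRP12 and 0.37 to 0.34 for MDN1.

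The inputs, which report the level in the cells, differed for 7 of the 50 genes. There were 6 genes higher in mutant input (NOP16, NHP2, NOP2, NOB1, TCOF1 and DDX21) and 1 lower (WDR12), against 7.47% and 10.0% of all genes and 8.91% and 14.2% of protein-coding genes. Under total library size, where the median of all genes was -0.43, DDX21 changed sign and 1 gene, NOP16, was higher and 15 lower. All 22984 genes gave 386 higher and 6822 lower under that scaling. NOP16, a 60S assembly factor, had the largest difference. NOP16 (ENSG00000048162, chr5:175810949-175815928, - strand) had 56.9, 53.1 and 44.7 CPM in mutant input, against 24.1, 21.1 and 28.0 CPM in WT input, and 49.8, 55.8 and 46.1 CPM in mutant RIP, against 26.1, 31.6 and 26.3 CPM in WT RIP. The lines did not overlap in either fraction, and the log2 difference was 1.08 ± 0.13 (adjusted p = 4.57e-06) in input and 0.85 ± 0.13 (adjusted p = 5.38e-05) in RIP. NHP2 (ENSG00000145912, chr5:177576464-177580895, - strand), the box H/ACA core protein, had 71.7, 66.3 and 60.9 CPM in mutant input, against 36.5, 37.9 and 40.2 CPM in WT input, and 61.2, 76.7 and 61.6 CPM in mutant RIP, against 36.8, 45.4 and 38.2 CPM in WT RIP. For NHP2 the difference was 0.79 ± 0.12 (adjusted p = 8.18e-05) in input and 0.73 ± 0.12 (adjusted p = 0.000164) in RIP, of like size in both.

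NOP2 (ENSG00000111641, chr12:6666029-6677857, - strand) had 19.6, 22.9 and 21.6 CPM in mutant input, against 11.6, 10.3 and 15.1 CPM in WT input. In RIP it had 14.4, 16.4 and 12.8 CPM in the mutant line, against 7.73, 8.70 and 8.71 CPM in the WT line. Again both fractions separated the lines, by 0.79 ± 0.14 (adjusted p = 0.000372) in input and 0.80 ± 0.14 (adjusted p = 0.000297) in RIP. TCOF1 was higher in mutant input by 0.60 ± 0.17, with overlapping libraries, and in mutant RIP by 0.67 ± 0.18. NOB1 was higher in mutant input by 0.51 ± 0.14, DDX21 by 0.40 ± 0.13, and WDR12 was lower, at -0.43 ± 0.12. DDX21 was not called with no filter (adjusted p = 0.0525) and WDR12 not with the GC trend removed (-0.28, 0.0561). Of these 7 calls, those of NHP2, NOP2 and NOP16 held whichever library was left out, and without WT input library 1 only these 3 were left (adjusted p 0.0593 to 0.119 for the others). The calls of TCOF1, NOB1 and WDR12 were also lost without mutant input library 1, those of TCOF1 and DDX21 without WT input library 2, and that of DDX21 without WT input library 3 or mutant input library 2 or 3. The values of NHP2 and NOP16 are uncertain because 28.0% of the exon bases of NHP2 are shared with RMND5B, and 12.3% and 6.31% of those of NOP16 with ARL10 and HIGD2A, all on the other strand. The libraries were stranded, per the labels, but the strand setting of the counting is not given in the sources used here.

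**Figure D3:**
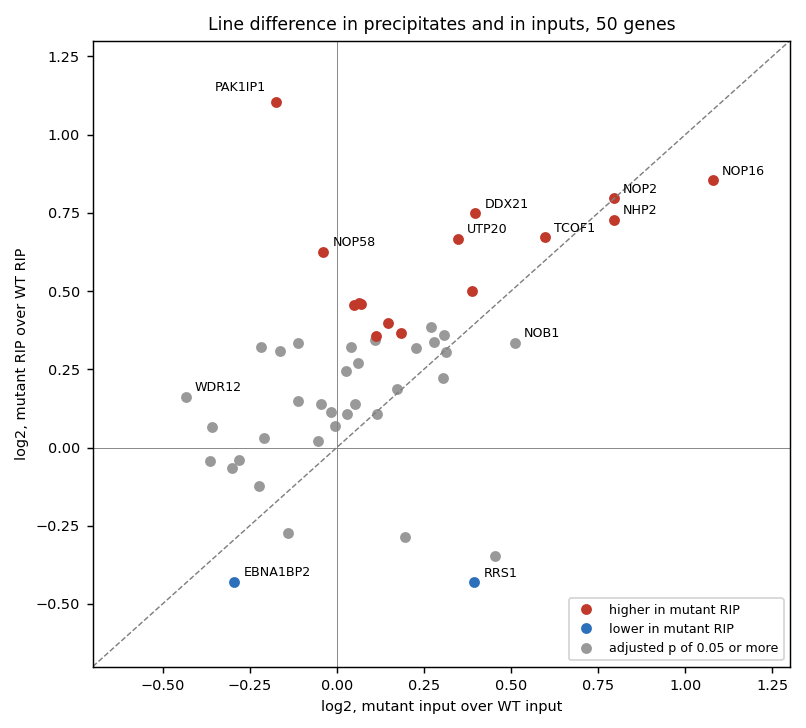
Log2 difference between the lines, mutant over WT, in input (x axis) and in RIP (y axis) for the 50 genes. Red points were called higher and blue points lower in mutant RIP, grey points were not called, and the dashed line marks equal differences. NOP16, NOP2, NHP2 and TCOF1 lie near the dashed line, while PAK1IP1 (1.11 in RIP, -0.17 in input) and NOP58 (0.63, -0.04) lie well above it.

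Base composition moved with enrichment in these genes. Over the 49 genes with a transcript in the annotation, the GC content of the transcript had a Pearson r of -0.60 and a Spearman rho of -0.55 with the mutant enrichment, and -0.55 and -0.49 with the WT enrichment (descriptions over genes in shared libraries). The 13 genes higher in both lines had a median GC content of 43.0% and the 14 lower in both 55.4%. Protein-coding genes were split by GC content into 3 equal bins. In the GC-poor bin, which held 18 of the genes (upper limit 43.7% GC), 10 were higher and 2 lower in the mutant line and 7 and 3 in the WT line. In the GC-rich bin, which held 15 (above 53.9% GC), 2 were higher and 11 lower in the mutant line and 1 and 11 in the WT line. Coding genes as a whole moved alike, with medians of 0.38 and -0.84 in the poor and rich bins of the mutant line and 0.18 and -0.68 in the WT line. The exceptions included FBL, at 57.2% GC, which was higher in both lines, BYSL, at 56.7% GC, which was called higher in the mutant line, and LTV1, at 41.8% GC, which was lower in both. With the trend of each library with GC content removed, 8 of the genes called with or without that step changed sign in the mutant line and 2 in the WT line, and the PAK1IP1 difference was 1.07. The 3′UTR length had an r of 0.09 with the mutant enrichment and 0.05 with the WT enrichment. The part of base composition in these results was not tested further.

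**Figure D4:**
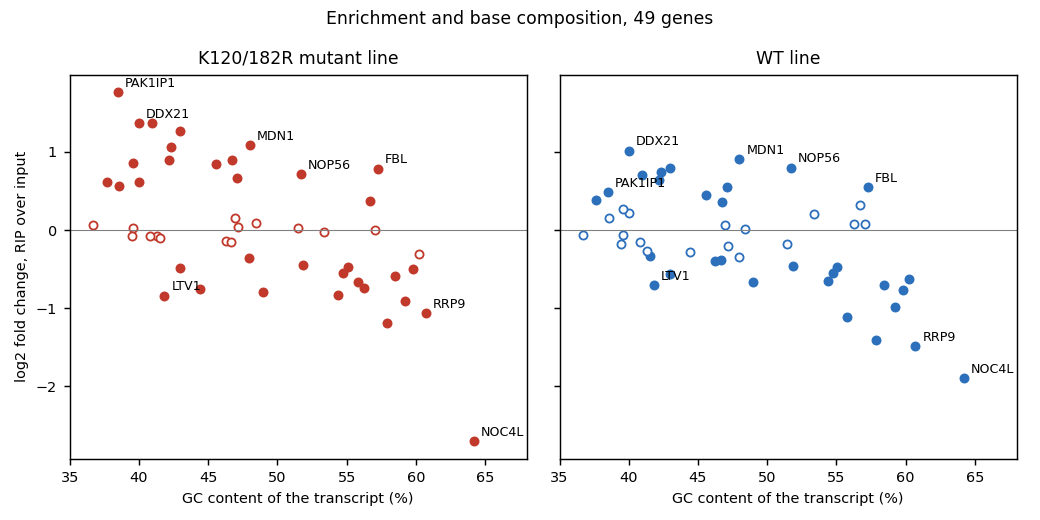
GC content of the transcript (x axis, %) against the log2 fold change of RIP over input (y axis) for 49 genes, in the K120/182R mutant line (left, red) and the WT line (right, blue). Filled points were called and open points were not. NOC4L, with the highest GC content (64.2%), lies lowest, and PAK1IP1 (38.5%) lies highest in the mutant line. BOP1, which has no transcript in the annotation, is not shown.

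Several of the 50 genes host snoRNAs within their bounds. A guide RNA and the protein made from its host can belong to the same kind of particle, as with the box C/D guide SNORD110 in NOP56. They can also belong to different kinds, as with the box H/ACA guide SNORA51 in NOP56. The annotation places 23 snoRNA genes inside 8 of the genes, of which 21, in 7 hosts, had enough counts to test. Only 5 of the 21 (SNORA75, SNORD20, SNORD110, SNORA51 and SNORD86) reached the filter on low counts in the inputs alone, and all 5 were higher in RIP in both lines and lie in annotated exons of NCL or NOP56. The other 16 passed only with the RIP libraries, so that a higher RIP level was largely set by the filter. With them all 21 were called higher in both lines, a count that carries no weight of its own, against 70.5% higher and 9.27% lower of the 302 snoRNA genes tested in the mutant line and 63.2% and 8.61% in the WT line, which passed the same filter. Between the inputs of the lines 5.30% of snoRNA genes were higher in the mutant line, and none of the 21. Between the precipitates 17.2% of snoRNA genes were higher in the mutant line, and 1 of the 21. The 5 were higher in RIP than in input in both lines under TMM, DESeq2 size factors, TMM from protein-coding genes and total library size. So were the other 16, but their direction was largely set by the filter under every scaling. None of the 21 was called in the difference between the lines in edgeR or in the DESeq2 test, where 18 had no adjusted p. At an unadjusted p under 0.05, 1 of the 21 was higher. Among the 18 with more than 3 counts over the inputs of each line, enrichments ran from 1.43 to 6.58 in the mutant line and from 1.56 to 6.16 in the WT line.

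The sequences of 5 of these guides are shown as examples, with hosts that cover both directions of change. Capitals mark the C-box-like TGATGA and the last CTGA of the box C/D guides, and the ACA near the end of the box H/ACA guides. They are the genome sequences of the GENCODE 44 snoRNA genes on hg19, 5′ to 3′.
SNORD110, in NOP56 (chr20:2634858-2634932, + strand): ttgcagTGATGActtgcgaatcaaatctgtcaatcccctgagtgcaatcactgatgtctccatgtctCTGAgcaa
SNORA51, in NOP56 (chr20:2635713-2635844, + strand): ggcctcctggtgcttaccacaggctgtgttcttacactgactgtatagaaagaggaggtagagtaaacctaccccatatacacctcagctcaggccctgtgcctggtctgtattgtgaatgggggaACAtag
SNORD11, in NOP58 (chr2:203157772-203157859, + strand): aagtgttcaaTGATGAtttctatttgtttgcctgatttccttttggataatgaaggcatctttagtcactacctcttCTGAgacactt
SNORD82, in NCL (chr2:232325082-232325151, - strand): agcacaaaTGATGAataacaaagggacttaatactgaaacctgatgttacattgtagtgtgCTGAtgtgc
SNORA36A, in DKC1 (chrX:153996803-153996934, + strand): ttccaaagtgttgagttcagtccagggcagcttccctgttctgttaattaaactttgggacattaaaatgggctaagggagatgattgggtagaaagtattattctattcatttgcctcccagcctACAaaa
SNORD86, in NOP56, is not shown here and holds a CTGA but no TGATGA. These letters separate the classes in the annotation only in part. TGATGA with a later CTGA was found in 59.0% of 390 SNORD genes and 1 of 399 SNORA genes, and ACA in the last 7 bases in 70.9% of SNORA genes and 5.90% of SNORD genes.

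SNORA51, in NOP56, had 42.8, 57.6 and 64.2 CPM in mutant RIP, against 1.61, 2.91 and 2.41 CPM in mutant input, and 20.4, 42.4 and 27.8 CPM in WT RIP, against 0.909, 2.25 and 1.48 CPM in WT input. Its enrichment was 4.56 ± 0.39 (adjusted p = 3.48e-06) in the mutant line and 4.31 ± 0.39 (adjusted p = 8.37e-06) in the WT line, far above that of the host. SNORD82, in NCL, had 3.97, 8.60 and 9.11 CPM in mutant RIP, against 0, 0.104 and 0.106 CPM in mutant input. In the WT line SNORD82 had 3.21, 6.16 and 4.20 CPM in RIP, against 0.0423, 0.157 and 0 CPM in input, so its inputs held only 8 counts over the 3 libraries of each line. SNORD82 and the guides of DKC1 are among those that passed only with RIP, and their values are a description. SNORA36A and SNORA56 had enrichments of 2.87 ± 0.52 and 4.26 ± 0.40 in the mutant line, against -0.14 ± 0.11 for DKC1, and 1.97 ± 0.50 and 3.80 ± 0.40 in the WT line, where DKC1 was lower at -0.40 ± 0.11. In TSR1, also lower in the WT line, SNORD91A was called higher in both lines but had 3 and 2 counts in the mutant and WT inputs, so no fold is given. Of the 21 guides, 10 lie in annotated exons of their host, where reads of guide and host cannot be told apart, and all 21 lie on the strand of the host.

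**Figure D5:**
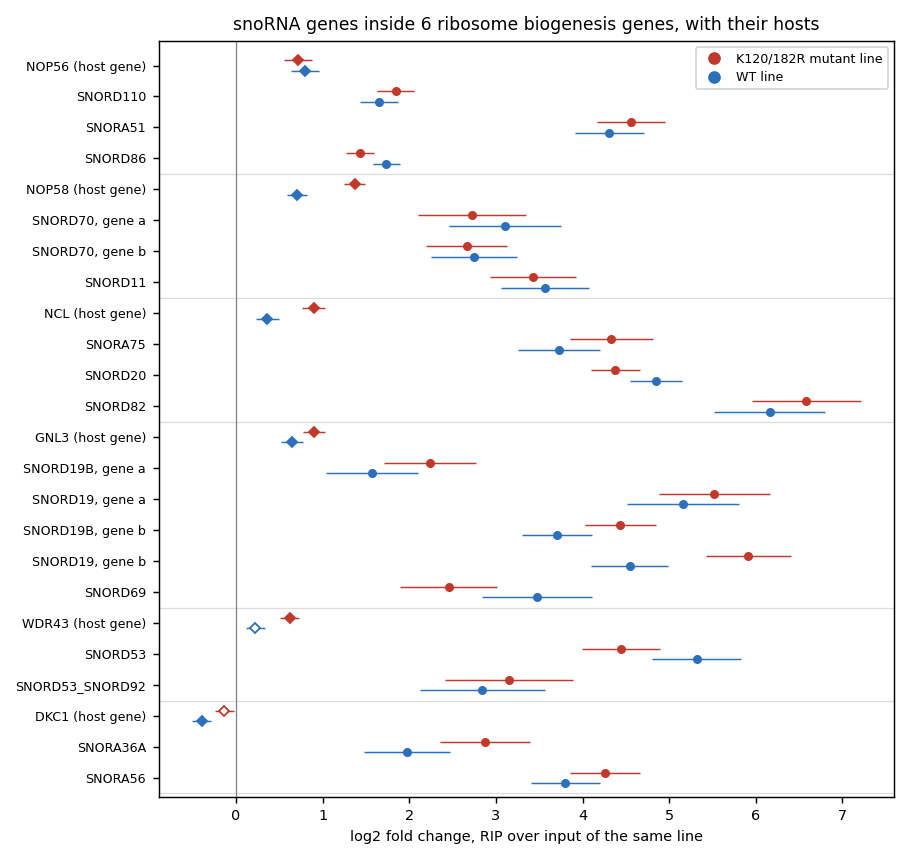
Log2 fold change of RIP over input (x axis) for the 18 snoRNAs with more than 3 counts over the inputs of each line, below their 6 host genes (diamonds). Red marks the K120/182R mutant line and blue the WT line, bars are standard errors, open symbols were not called, and a and b mark separate genes of 1 name. Each snoRNA lies to the right of its host in both lines. For the snoRNAs that passed the filter on low counts only with the RIP libraries, a high RIP level was largely set by that filter.

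Other genes of the pathway were described in the same way, from a list of 109 of which 107 were tested, with AATF and DDX52 not analysed here. In the mutant line 31 were higher and 35 lower in RIP, against 29.0% and 28.0% of all genes and 26.6% and 36.1% of protein-coding genes. In the WT line 18 were higher and 42 lower, against 25.6% and 25.4% of all genes and 22.0% and 34.0% of protein-coding genes. With total library size 29 of the called genes changed sign in the mutant line and 32 in the WT line. In the difference between the lines 83 of 107 were positive (median 0.14), none was called in edgeR, 16 were higher and 2 lower at an unadjusted p under 0.05 (7.60% and 5.47% of all genes), and DESeq2 called 3 higher and 0 lower (1.65% and 0.239% of all genes). In mutant RIP against WT RIP 24 were higher and 5 lower, against 9.87% and 9.76% of all genes and 11.6% and 13.4% of protein-coding genes. In input 7 were higher and 11 lower, against 7.47% and 10.0% of all genes and 8.91% and 14.2% of protein-coding genes. Among small subunit factors RCL1 was the most enriched, at 2.31 ± 0.16 (adjusted p = 7.83e-12) in the mutant line and 1.86 ± 0.16 (adjusted p = 5.76e-10) in the WT line, and TBL3 was lower at -2.59 ± 0.22 and -2.10 ± 0.21. Among polymerase I factors TAF1D was higher at 2.26 ± 0.19 in the mutant line and 1.86 ± 0.18 in the WT line, and POLR1H at 0.95 ± 0.14 and 0.85 ± 0.14. The exosome helicase MTREX was higher at 1.67 ± 0.13 and 1.11 ± 0.13, and the exosome subunit EXOSC5 lower at -2.21 ± 0.20 and -1.63 ± 0.19. Among 60S factors WDR18 was lower at -2.31 ± 0.19 in the mutant line and -2.28 ± 0.19 in the WT line. The value of WDR74 (-3.74 and -4.07) is uncertain because it overlaps the small nuclear RNA gene RNU2-2P. Apart from this, overlaps of the other pathway genes, TAF1D included, with snoRNAs or other counted genes were not examined. Their values may hold such reads.

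Levels between genes are compared only per length, as CPM per kilobase of transcript in input, averaged over the lines. NPM1 was highest at 326 CPM per kilobase, then NOP56 at 235, NOP10 at 84.9 and NHP2 at 67.0. The lowest were WDR3 at 1.47, MDN1 at 1.63 and POLR1A at 1.71. PAK1IP1 stood at 9.07, rank 21 of 49, so the gene whose enrichment differed between the lines was neither among the most nor among the least abundant of them.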

How the data were processed

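The deposited files hold raw gene counts, whole numbers per Ensembl gene, for 12 libraries. Per the submitters' processing notes, bcl2fastq 2.20.0.422, cutadapt, STAR 2.4.0j and featureCounts 1.6.4 were used, with hg19. The annotation release and the strand setting of the counting are not given in the sources used here. Identifiers were matched to GENCODE 44 lifted to GRCh37 (55538 of 57773). Unmatched identifiers held 2.65 to 3.39% of RIP counts and 15.9 to 21.0% of input counts.

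Counts were analysed in R 4.3.3 with edgeR 4.0.16 (TMM, filterByExpr, robust quasi-likelihood F-test), fitting 1 coefficient for each of 4 groups over all 12 libraries, and p-values were adjusted by Benjamini-Hochberg over 22984 genes. Genes were called at an adjusted p under 0.05. The difference between the lines is the interaction. CPM uses TMM-scaled library sizes. Alternatives were DESeq2 1.42.0, other size factors, filters and group choices, a replicate block, removal of the GC trend and leaving out each library.

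The genes and lists were chosen with earlier results of these data known. Values of every library are given for the 4 highest and 4 lowest genes of each enrichment, up to 6 called genes of each comparison between the lines by smallest p, and the gene of smallest adjusted p of each role group. Other genes are given by their log2 ratios, and NCL, chosen after its values were seen, also by its WT libraries. Of the other pathway genes, up to 4 a list could be named, by smallest adjusted p in the WT line.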

Additional observations from a re-analysis of the deposited data

Results flagged for a closer look

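PAK1IP1 was singled out because its enrichment differed between the lines in a test of the difference itself. The log2 ratio of RIP over input was 1.76 in the mutant line and 0.49 in the WT line, a difference of 1.28 ± 0.19 (SE; edgeR quasi-likelihood test, adjusted p = 0.0115), with all 3 mutant RIP libraries above all 3 WT RIP libraries. The difference stayed called in 18 of the 21 alternatives run, and was lost without WT RIP library 1, mutant RIP library 3 or WT input library 1.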

How the results depend on the processing

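With total library size 45 genes were higher and 2 lower in mutant RIP than in mutant input, and 38 and 2 in the WT line. Over all 22984 genes the counts were 16795 and 922 in the mutant line and 15761 and 879 in the WT line. Between the precipitates 5 of the 50 were higher in mutant RIP, against 776 of all genes. Between the inputs 1 was higher and 15 lower in the mutant line, against 386 and 6822 of all genes. With that scaling the sign changed for 24 genes in the mutant line, which had log2 values of POLR1A 0.86, POLR1B 0.84, UBTF 0.82, TCOF1 0.39, NPM1 1.23, RRP9 0.25, DKC1 1.18, NOP10 0.94, UTP3 0.57, HEATR1 1.22, RRP12 0.72, NOB1 0.48, LTV1 0.48, TSR1 1.17, PES1 0.12, NOP2 0.76, NOP16 1.28, NOC2L 0.81, RRP1 0.99, RRS1 0.57, DDX18 1.23, DDX56 0.65, NIP7 1.23 and EBNA1BP2 0.51. It changed for 23 genes in the WT line, with POLR1A 0.57, POLR1B 0.50, UBTF 0.58, TCOF1 0.0736, NPM1 0.79, DKC1 0.65, NOP10 0.68, NOP14 0.85, UTP3 0.78, UTP4 0.87, HEATR1 0.71, WDR3 0.97, WDR36 0.99, RRP12 0.33, NOB1 0.42, LTV1 0.35, TSR1 0.65, NOP2 0.49, NOC2L 0.28, RRP1 0.39, DDX18 0.86, NIP7 0.91 and EBNA1BP2 0.37, and for DDX21 in input, with -0.0521. With the trend with GC content removed it changed in the mutant line for UBTF 0.12, TCOF1 0.0408, WDR3 -0.35, WDR36 -0.38, RRP12 0.27, NOP16 0.42, NOC2L 0.50 and RRP1 0.72, and in the WT line for NOC2L 0.0265 and RRP1 0.19. In that setting 4 genes were lower in mutant input, against 2782 of all 22984 genes. The causes were not tested. The DESeq2 test called 3 genes higher and 1 lower in the difference between the lines, against 379 and 55 of all genes. Without a filter on low counts 1 was lower, against 66 of 42620 genes. Fewer than the 2 genes lower in mutant RIP against WT RIP were called with DESeq2 size factors (0), TMM from protein-coding genes (1) and the DESeq2 test (0). Over all genes these settings called 1954, 1985 and 2174 lower. Leaving out 1 library at a time gave 0 to 1 genes higher in the difference, 8 to 15 higher and 0 to 2 lower in RIP between the lines, and 3 to 7 higher and 0 to 1 lower in input, with the lowest counts without WT RIP library 1 for RIP and without WT input library 1 for input. In these fits 31 of 35 calls in the mutant line and 25 of 32 in the WT line held in all 12, and no direction turned. Whether the replicate numbers pair the samples was not settled. Of the same-numbered pairs 8 of 18 correlated over 0.1 (range -0.52 to 0.61), and within a line 4 of 6. With the replicate block, as a number only, 16 genes were higher and 18 lower in the mutant line, 13 and 20 in the WT line, 1 and 0 in the difference, 15 and 2 in RIP between the lines and 6 and 1 in input, and PAK1IP1 differed by 1.29, while BYSL in the mutant line (adjusted p = 0.0504) and RRP12 in RIP between the lines (0.0524) were no longer called. Over all genes the replicate block gave 6567 higher and 6404 lower in the mutant line and 5735 and 5817 in the WT line. For the difference it gave 23 and 0, for RIP between the lines 2371 and 2203, and for input 1683 and 2223. With the block within each line the counts among the 50 were 17 and 18, 13 and 20, and 1 and 0. Over all genes that block gave 86 higher and 19 lower in the difference, against 15 and 0 without a block. With 14 counts in its lowest library, NOC4L is the gene whose values depth limits most.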
